A study of Homo sapiens with 24 samples.

Results

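Gene expression was compared between a pair of stably transduced lines of cells labelled Huh-7, an established human hepatocellular carcinoma line, after 3 h in 1% oxygen. In shHIF-1A cells a lentiviral short hairpin RNA targeted HIF1A, and in shGFP cells, the control, the hairpin targeted GFP, which human cells lack. The comparison rests on 3 Illumina bead arrays of shHIF-1A cells and 3 of shGFP cells, chosen by their titles, out of 24 arrays in the study. Arrays of the same lines after 6 h and 12 h of hypoxia (2 each), and of shGFP cells in normoxia and after 24 h of hypoxia (2 each), served as points of reference. All these cells carried a lentiviral hairpin and were grown in the same serum-containing medium. The rest of the 24 arrays were of shNDRG3 cells, a knockdown of NDRG3, after 6 h, 12 h and 24 h of hypoxia (2 each). They were not compared here and entered only the shared normalisation, probe filter and estimate of spread. None of the 24 arrays is of shHIF-1A cells in normoxia. A difference between the lines that existed before hypoxia and one that arose during the 3 h thus cannot be told apart. The labels name no other hairpin against HIF1A and no rescue, so an effect of the loss of HIF1A and an effect of this hairpin or of this cell stock cannot be told apart either. The labels do not say whether arrays of a group came from separate cultures. The p-values and standard errors rest on the spread between arrays within groups, pooled over all 24 arrays, which may be technical. They do not measure the spread of the compared arrays alone.

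HIF-1 is a transcription factor made of an oxygen-regulated alpha subunit, encoded by HIF1A, and the constitutive subunit ARNT. In normoxia, prolyl hydroxylases of the EGLN family mark the alpha subunit for ubiquitination by VHL. In low oxygen the subunit accumulates, binds hypoxia response elements and raises genes of glycolysis, mitophagy, iron handling and angiogenesis. Interferon-stimulated genes belong to another circuit: RNA sensors such as RIGI and IFIH1 lead to production of type I interferon, and interferon signalling then drives antiviral genes through interferon-stimulated response elements.

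A total of 15246 genes were tested. The signal of each array is given on the linear scale after quantile normalisation, on which the median of an array was 131. Differences are shHIF-1A minus shGFP on the log2 scale, with standard errors from limma over all 24 arrays and p-values adjusted by the Benjamini-Hochberg method over all genes tested. No background was subtracted, so folds of dim genes are understated, and a fold is given as a lower bound where the dimmer line averaged under 1.5 times the array median. The 6 arrays had deposited median signals of 136 to 150. Arrays of a line correlated at r = 0.9912 to 0.9973 across genes and arrays of different lines at 0.9755 to 0.9824. Replicate 2 of shHIF-1A stood apart from replicates 1 and 3 of that line, from which it differed by a median of 0.168 and 0.165 on the log2 scale, against 0.0906 between those replicates. The hepatocyte markers AFP, APOA1, APOB and AHSG were under the array median in both lines, and 3 of 13 measured hepatocyte markers (ALB, FOXA1 and CEBPA) exceeded it more than 2-fold, so these arrays gave little of the secretory programme that the label Huh-7 names.

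HIF1A itself had a signal of 563, 813 and 515 in the shHIF-1A arrays, against 1451, 1487 and 1548 in the shGFP arrays. The groups did not overlap, and the knockdown left 3 arrays between 515 and 813. The log2 difference was -1.27 ± 0.14 (adjusted p = 3.55e-07), a 2.42-fold lower signal in shHIF-1A cells, in 3 of 3 arrays. Another HIF1A probe gave -1.10 (adjusted p = 0.000626 over all kept probes), and a dimmer one gave -0.39 without passing the threshold (adjusted p = 0.203). HIF1A was also lower in shHIF-1A cells at 6 h (-1.74) and at 12 h (-1.42). In RNA from whole cultures, fewer expressing cells and less RNA per cell cannot be told apart.

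The largest differences were antiviral transcripts that were lower in shHIF-1A cells, and the genes that were higher differed by less. At an adjusted p under 0.05, 1804 genes were higher (11.8% of those tested) and 2028 lower (13.3%) in shHIF-1A cells, 3832 in all (25.1%). At 2-fold or more, 16 genes were higher (0.105%) and 258 lower (1.69%). At 4-fold or more, 68 genes were lower (0.446%) and 0 higher, since the largest measured rise of any gene was 3.47-fold, and 20 were lower by 8-fold or more. The near balance of directions depends on scaling: with median-centred arrays 2099 genes passed as higher and 1278 as lower, and with signals as deposited 2291 as higher and 1136 as lower. Without replicate 2 of shHIF-1A, 1482 genes passed as higher and 1780 as lower. At 1.5-fold or more 1100 genes passed (7.22%), 339 higher (2.22%) and 761 lower (4.99%). Of these 1100, 1089 (99%) had the same sign at 6 h and at 12 h, which were measured on other arrays of both lines, against 56.6% of all genes tested.

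**Figure D1:**
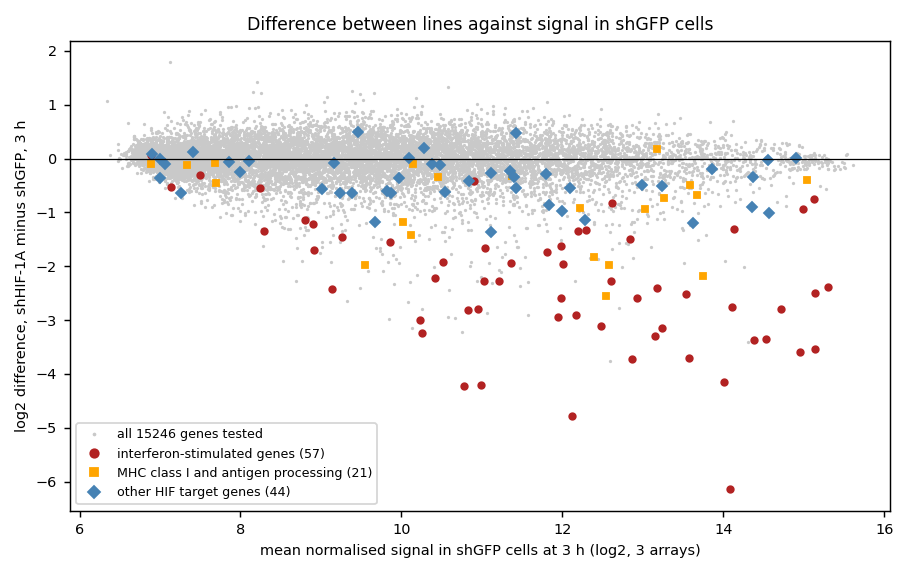
Each dot is 1 of 15246 genes, with its mean normalised signal in shGFP cells at 3 h on the log2 scale (horizontal axis) and its log2 difference, shHIF-1A minus shGFP (vertical axis). Interferon-stimulated genes, down to OAS2 at -6.14, reach far below the rest of the genes, MHC class I and antigen processing genes reach -2.56, and HIF target genes outside glycolysis reach -1.37.

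Interferon-stimulated genes were almost uniformly lower in shHIF-1A cells. Of 60 listed genes 57 were measured, and 56 of them passed as lower and 0 as higher, beside 13.3% and 11.8% of all genes. Their median log2 difference was -2.39, against -0.00 over all genes tested. Of the 56, 49 were lower by at least 2-fold, 33 by at least 4-fold and 16 by at least 8-fold. The remaining member, CMPK2, was near the array median in both lines and is named here after its value was seen. In 56 of the 57 the arrays of the lines did not overlap and were lower in shHIF-1A cells, beside 19.6% of all genes (38.7% in either direction). The count of calls was 56 without replicate 2 of shHIF-1A and 54 with median-centred arrays.

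OAS2, which makes oligoadenylates that activate RNase L when it meets double-stranded RNA, had the largest difference of all genes tested. Its signal was 274, 226 and 237 in the shHIF-1A arrays, against 16013, 16693 and 19343 in the shGFP arrays. A transcript that was bright in shGFP cells lay between 226 and 274 in the shHIF-1A arrays, a 70.6-fold difference (-6.14 ± 0.12 log2, adjusted p = 4.05e-21). The other kept probes of OAS2 were dimmer and gave log2 differences of -3.36, -2.63 and -0.54, so the size of this fold is that of 1 probe.

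IFIT1 and IFIT3 are members of a family of proteins with tetratricopeptide repeats that bind foreign RNA. IFIT1 had 3038, 2473 and 2485 in the shHIF-1A arrays, against 31972, 34685 and 29108 in the shGFP arrays, a 12-fold difference (-3.59 ± 0.25 log2, adjusted p = 1.12e-10). IFIT3 had 1070, 720 and 1058 in the shHIF-1A arrays, against 14927, 16857 and 17790 in the shGFP arrays, a 17.6-fold difference (-4.14 ± 0.16 log2, adjusted p = 1.47e-15). Both remained measurable in shHIF-1A cells, and in both the arrays of the lines were far apart. IFI44L and IFI27, which are used as markers of interferon exposure, followed the same direction. IFI44L had 690, 484 and 534 in the shHIF-1A arrays, against 7393, 6917 and 8133 in the shGFP arrays (13.3-fold, log2 -3.73 ± 0.12). IFI27 had 3540, 2745 and 3140 in the shHIF-1A arrays, against 35199, 34877 and 38422 in the shGFP arrays (11.6-fold, log2 -3.53 ± 0.39, adjusted p = 2.78e-07).

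Other antiviral effectors lay near the array background in shHIF-1A cells. MX2, a dynamin-like GTPase that restricts HIV, had 169, 165 and 151 in the shHIF-1A arrays, against 4545, 4185 and 4635 in the shGFP arrays (at least 27.5-fold, log2 -4.78 ± 0.09). TRIM22, an antiviral ubiquitin ligase, had 89.6, 98.3 and 94 in the shHIF-1A arrays, against 1698, 1699 and 1883 in the shGFP arrays (at least 18.7-fold, log2 -4.23 ± 0.10). SLC15A3, a lysosomal peptide and histidine transporter, had 103, 125 and 105 in the shHIF-1A arrays, against 2199, 1915 and 1981 in the shGFP arrays (at least 18.4-fold, log2 -4.20 ± 0.10). For these 3 genes the shHIF-1A arrays were at or under 169, where a signal is hard to tell from background, so their folds are lower bounds. UBA7, the activating enzyme for conjugation of ISG15, was also near background in shHIF-1A cells, with 121, 148 and 119 in the shHIF-1A arrays, against 1196, 1188 and 1281 in the shGFP arrays (at least 9.46-fold, log2 -3.24 ± 0.10). ISG20, an RNA exonuclease, kept a clear signal, with 2346, 1732 and 2137 in the shHIF-1A arrays, against 20790, 21242 and 22056 in the shGFP arrays (10.4-fold, log2 -3.38 ± 0.10). Its lowest shGFP array was still far above its highest shHIF-1A array. OASL, a relative of the oligoadenylate synthetases that enhances RIGI signalling, had 1086, 855 and 889 in the shHIF-1A arrays, against 11329, 11708 and 13701 in the shGFP arrays (13-fold, log2 -3.70 ± 0.22). CCL5, a chemokine that recruits T cells, had 2369, 1677 and 1776 in the shHIF-1A arrays, against 19615, 20345 and 20888 in the shGFP arrays (10.6-fold, log2 -3.40 ± 0.21).

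These genes already had high signals in shGFP cells in normoxia. OAS2 had 19444 and 18972 in shGFP cells in normoxia, IFIT1 had 28475 and 36426, and IFI27 had 34973 and 37854. The median log2 difference of the 57 genes between shGFP cells at 3 h and in normoxia was -0.02, and 0 passed as higher and 1 as lower in that contrast, which shares the shGFP arrays at 3 h (overall 1.28% of genes passed as higher and 0.203% as lower). The difference between lines stayed large later, with list medians of -2.22 at 6 h and -2.03 at 12 h.

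**Figure D2:**
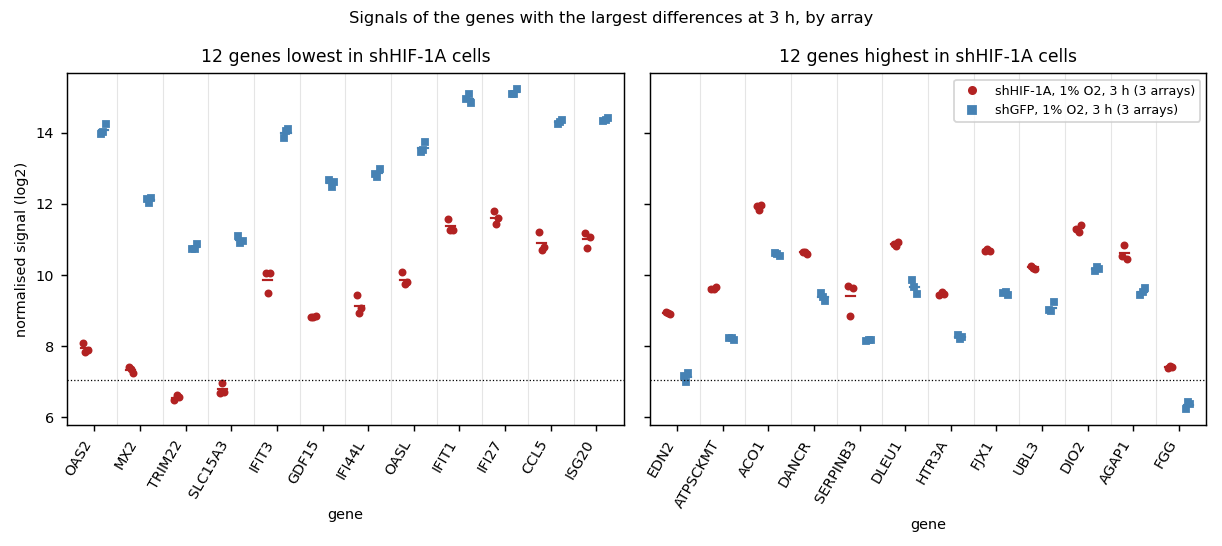
Normalised signals on the log2 scale (vertical axis) of the 12 genes with the lowest and the 12 with the highest log2 difference whose arrays did not overlap, with 1 point per array and a bar at the mean of each line. The dotted line marks the median of an array, which the shHIF-1A arrays of TRIM22 and SLC15A3 and the shGFP arrays of FGG fall below. The losses on the left span up to 70.6-fold and the gains on the right at most 3.47-fold as measured.

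Promoter sequences show what many of these genes share. An element made of GAAA, any 2 bases and GAAA again, the core of the interferon-stimulated response element, was searched on both strands in the RefSeq promoters of GRCh38.p14 (250 bases before to 50 after each start site). It occurred in 31 of 43 interferon-stimulated genes with a promoter entry (72.1%), and in 11 of 18 MHC class I and antigen processing genes (61.1%). Among all genes tested it occurred in 4.03% of 11849 genes with an entry. Of the genes lower by at least 4-fold in shHIF-1A cells it occurred in 23 of 50 (46%), of those lower by at least 1.5-fold in 78 of 600 (13%), and of those higher by at least 1.5-fold in 4 of 262 (1.53%). A match describes the letters only and is no evidence of binding. The stretches below, from promoters of 5 of the 12 lowest genes, carry it in capitals on the plus strand of each gene, so an element on the opposite strand reads TTTC, any 2 bases and TTTC. They lie at chr10:89392477-89392559 for IFIT1, chr10:89327811-89327914 for IFIT3, chr1:78620254-78620323 for IFI44L, chr14:94110598-94110680 for IFI27 and chr15:88638917-88638986 for ISG20, all on the plus strand of the genome.
IFIT1: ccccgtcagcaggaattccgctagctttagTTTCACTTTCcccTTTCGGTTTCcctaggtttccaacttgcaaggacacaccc
IFIT3: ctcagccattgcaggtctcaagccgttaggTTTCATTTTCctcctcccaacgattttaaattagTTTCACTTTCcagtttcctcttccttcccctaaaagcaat
IFI44L: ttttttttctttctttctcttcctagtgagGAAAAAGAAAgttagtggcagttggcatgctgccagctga
IFI27: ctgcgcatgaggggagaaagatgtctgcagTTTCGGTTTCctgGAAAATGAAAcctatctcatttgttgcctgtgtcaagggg
ISG20: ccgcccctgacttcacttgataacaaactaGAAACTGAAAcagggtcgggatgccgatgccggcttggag
IFIT1, IFIT3 and IFI27 hold the element at 2 places within this stretch, and IFI44L and ISG20 at 1.

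Genes that sense RNA and carry the interferon signal were lower as well, though by less. Of 36 measured members of 41 listed, 21 passed as lower and 0 as higher, beside 13.3% and 11.8% of all genes. Their median was -0.39. The cytosolic RNA sensor RIGI had 197, 175 and 186 in the shHIF-1A arrays, against 1732, 1603 and 1872 in the shGFP arrays (at least 9.32-fold, log2 -3.22 ± 0.11). Its relative IFIH1 had 475, 546 and 455 in the shHIF-1A arrays, against 2258, 2386 and 2484 in the shGFP arrays (4.84-fold, log2 -2.28 ± 0.13). Both sensors were lower in 3 of 3 arrays. IRF7, the transcription factor that amplifies interferon production, had 462, 359 and 416 in the shHIF-1A arrays, against 2861, 2879 and 3457 in the shGFP arrays (7.45-fold, log2 -2.90 ± 0.11). IRF9, a transcription factor of the interferon response, had 1826, 1382 and 1447 in the shHIF-1A arrays, against 5666, 5966 and 5162 in the shGFP arrays (3.63-fold, log2 -1.86 ± 0.11). IFNB1, which encodes interferon beta, had a dim but separate signal of 94.5, 96 and 105 in the shHIF-1A arrays, against 352, 355 and 399 in the shGFP arrays (at least 3.74-fold, log2 -1.90 ± 0.11). The 3 shHIF-1A arrays of IFNB1 lay under the array median, where a signal is hard to tell from background. In shGFP cells in normoxia IFNB1 had 385 and 430. DHX58, a regulator of the RNA sensors, was lower with at least 3.73-fold difference (-1.90 ± 0.10 log2).

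Machinery for short interfering RNA, which processes the hairpin of either line, was listed beside these sensors. Of 12 measured members 3 passed as higher and 0 as lower, beside 11.8% and 13.3% of all genes, with a median of 0.12. The call of 1 of the 3, PRKRA, an activator of the kinase PKR, was lost under 11 of the 16 alternatives. TNRC6B, a scaffold of the silencing complex, had 426, 414 and 488 in the shHIF-1A arrays, against 318, 288 and 325 in the shGFP arrays (log2 0.51 ± 0.11, adjusted p = 0.00109). AGO1, an Argonaute protein, had a log2 difference of 0.43 ± 0.10 (adjusted p = 0.00325). Whether the level of hairpin RNA differed between the lines was not tested.

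Transcripts of MHC class I and antigen processing genes were mostly lower in shHIF-1A cells. Of 21 measured genes of 22 listed, 15 passed as lower and 0 as higher, beside 13.3% and 11.8% of all genes. The median was -0.68, and 7 were lower by at least 2-fold, beside 1.69% of all genes. HLA-B, which presents peptides to cytotoxic T cells, had 1040, 951 and 1049 in the shHIF-1A arrays, against 5255, 6897 and 5844 in the shGFP arrays (5.89-fold, log2 -2.56 ± 0.11). HLA-F and HLA-E, non-classical class I molecules, were lower by 3.96-fold and 3.54-fold. Probes of HLA genes can cross-hybridise between these near-identical relatives, so their single values are uncertain. TAP1, which pumps peptides into the endoplasmic reticulum, had 3264, 2534 and 3336 in the shHIF-1A arrays, against 12804, 14172 and 14436 in the shGFP arrays (4.56-fold, log2 -2.19 ± 0.11). PSMB9, an interferon-inducible proteasome subunit, had 196, 189 and 185 in the shHIF-1A arrays, against 739, 848 and 672 in the shGFP arrays (at least 3.94-fold). B2M, the light chain of class I, was lower by only 1.32-fold (-0.40, adjusted p = 0.00254).

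Genes of the hypoxia response differed in where the shHIF-1A arrays lay relative to shGFP cells in hypoxia and in normoxia. Among HIF target genes outside glycolysis, 24 of 44 measured members passed as lower and 2 as higher, with a median of -0.35. Glycolysis and glucose uptake had 9 of 28 members lower and 3 higher, with a median of -0.14. Of all genes tested 13.3% passed as lower and 11.8% as higher. With median-centred arrays 17 and 5 members of these lists passed as lower. In shGFP cells at 3 h against normoxia, 25 of the 44 and 11 of the 28 passed as higher, beside 1.28% of all genes. That contrast shares the shGFP arrays at 3 h with the comparison of lines.

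PFKFB4, a bifunctional enzyme that sets the level of an activator of phosphofructokinase, showed the largest difference among glycolysis genes. Its signal was 1025, 857 and 973 in the shHIF-1A arrays at 3 h, against 4744, 4595 and 4412 in the shGFP arrays at 3 h and 780 and 761 in the shGFP arrays in normoxia. The shHIF-1A arrays lay just above the normoxic shGFP arrays, and the difference between lines was -2.27 ± 0.10 log2 (4.83-fold, adjusted p = 7.96e-15). ENO2, an enolase isoform, had 514, 463 and 581 in the shHIF-1A arrays at 3 h, against 1525, 1522 and 1442 in the shGFP arrays at 3 h and 501 and 527 in the shGFP arrays in normoxia. Here the shHIF-1A arrays fell around the normoxic values, with a difference between lines of -1.53 ± 0.12 log2 (2.89-fold). BNIP3, a mitophagy receptor of the outer mitochondrial membrane, had 5832, 5396 and 5396 in the shHIF-1A arrays at 3 h, against 11031, 13514 and 13629 in the shGFP arrays at 3 h and 5386 and 5640 in the shGFP arrays in normoxia. It too was at the normoxic level in shHIF-1A cells, with -1.19 ± 0.09 log2 (2.29-fold) between lines. ALDOC, an aldolase isoform, had 1010, 886 and 984 in the shHIF-1A arrays at 3 h, against 1677, 1596 and 1358 in the shGFP arrays at 3 h and 1084 and 989 in the shGFP arrays in normoxia (log2 between lines -0.68 ± 0.09).

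These promoters hold the letters of the hypoxia response element, which is a common motif. The cores ACGTG and GCGTG, searched on both strands, occurred in 25 of 26 glycolysis genes with an entry and in 31 of 35 other HIF target genes, but also in 65.6% of all genes tested. ACGTG alone occurred in 18 of 26 and 21 of 35, against 30.5% of all genes tested. Of genes lower by at least 4-fold in shHIF-1A cells 22 of 50 (44%) held either core. The share was 59.7% of those lower by at least 1.5-fold and 77.1% of those higher by at least 1.5-fold. For ACGTG alone these shares were 16%, 25.5% and 38.6%. Neither motif was thus more frequent among lower genes than among all genes tested. The stretches shown are from 3 genes at or near their normoxic level in shHIF-1A cells, with the cores in capitals, read along each gene's own strand. They lie at chr12:6914432-6914496 (plus strand) for ENO2, chr3:48556935-48556999 (minus strand) for PFKFB4 and chr10:131981993-131982096 (minus strand) for BNIP3.
ENO2: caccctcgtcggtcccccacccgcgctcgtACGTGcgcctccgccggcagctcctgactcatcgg
PFKFB4: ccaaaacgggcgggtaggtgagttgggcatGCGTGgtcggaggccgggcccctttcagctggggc
BNIP3: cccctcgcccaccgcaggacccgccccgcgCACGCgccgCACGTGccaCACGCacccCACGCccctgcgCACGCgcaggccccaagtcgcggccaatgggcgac
In BNIP3 the cores repeat, and at CACGTG the same letters are a core on both strands.

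Several induced genes were intermediate. HILPDA, which blocks lipolysis on lipid droplets, had 2200, 2204 and 1868 in the shHIF-1A arrays at 3 h, against 4538, 4137 and 3656 in the shGFP arrays at 3 h and 1229 and 1394 in the shGFP arrays in normoxia. BHLHE40, a circadian transcriptional repressor, had 11194, 10379 and 12260 in the shHIF-1A arrays at 3 h, against 20345, 20566 and 21890 in the shGFP arrays at 3 h and 8379 and 8694 in the shGFP arrays in normoxia. Both were lower in shHIF-1A cells (-0.97 and -0.90 log2) while every shHIF-1A array exceeded both normoxic shGFP arrays. INSIG2, which retains sterol regulators in the endoplasmic reticulum, went the other way, with 362, 354 and 369 in the shHIF-1A arrays at 3 h, against 961, 704 and 812 in the shGFP arrays at 3 h and 444 and 509 in the shGFP arrays in normoxia. Its shHIF-1A arrays lay below normoxia, with -1.18 ± 0.11 log2 between lines. VEGFA, the main angiogenic factor, had 738, 392 and 712 in the shHIF-1A arrays at 3 h, against 852, 853 and 1006 in the shGFP arrays at 3 h and 515 and 511 in the shGFP arrays in normoxia. Replicate 2 of shHIF-1A was the lowest of all these VEGFA arrays, and the difference between lines was -0.61 ± 0.16 log2 (1.53-fold, adjusted p = 0.00545). Another VEGFA probe gave -0.54 (adjusted p = 0.0033 over all kept probes). SPRY1, an inhibitor of receptor tyrosine kinase signalling, had 235, 329 and 258 in the shHIF-1A arrays at 3 h, against 884, 792 and 890 in the shGFP arrays at 3 h and 206 and 197 in the shGFP arrays in normoxia (-1.66 ± 0.11 log2 between lines).

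Other hypoxia-raised genes were higher in shHIF-1A cells. SLC2A14, a glucose transporter with near-identical sequence to SLC2A3, had 1087, 1029 and 1057 in the shHIF-1A arrays at 3 h, against 784, 838 and 740 in the shGFP arrays at 3 h and 294 and 232 in the shGFP arrays in normoxia. Both lines were above normoxia, and shHIF-1A cells exceeded shGFP cells by 0.43 ± 0.12 log2 (adjusted p = 0.0131), a call lost without replicate 3 of shGFP. PDK3, a kinase of pyruvate dehydrogenase, had 410, 413 and 444 in the shHIF-1A arrays at 3 h, against 334, 308 and 317 in the shGFP arrays at 3 h and 205 and 235 in the shGFP arrays in normoxia. The difference between lines was 0.40 ± 0.09 log2, a call lost when only the 6 arrays were fitted. IGFBP3, which binds insulin-like growth factors, had 6988, 8800 and 7182 in the shHIF-1A arrays at 3 h, against 4305, 4461 and 4294 in the shGFP arrays at 3 h and 1608 and 2335 in the shGFP arrays in normoxia. Its 3 shHIF-1A arrays were all above the shGFP arrays, by 1.75-fold (0.81 ± 0.11 log2, adjusted p = 1.03e-05). LOX, which crosslinks collagen, had 877, 1256 and 865 in the shHIF-1A arrays at 3 h, against 732, 732 and 649 in the shGFP arrays at 3 h and 484 and 390 in the shGFP arrays in normoxia (0.49 ± 0.14 log2), and its call was lost without replicate 2 of shHIF-1A or replicate 3 of shGFP. PFKM, the muscle-type phosphofructokinase that did not pass between shGFP at 3 h and normoxia (-0.08), was higher in shHIF-1A cells by 0.45 ± 0.09 log2.

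Iron, redox and matrix genes of the list differed in both directions. TFRC, the transferrin receptor, had 11578, 11889 and 12774 in the shHIF-1A arrays at 3 h, against 23781, 23005 and 26455 in the shGFP arrays at 3 h and 28713 and 29437 in the shGFP arrays in normoxia, a 2.02-fold lower signal in shHIF-1A cells (-1.01 ± 0.08 log2). TXNIP, an inhibitor of thioredoxin and glucose uptake, had 4303, 3129 and 4056 in the shHIF-1A arrays at 3 h, against 2845, 2692 and 2675 in the shGFP arrays at 3 h and 5479 and 5373 in the shGFP arrays in normoxia. It was lower in shGFP cells at 3 h than in normoxia (-0.99) and higher in shHIF-1A than in shGFP cells (0.47 ± 0.10). P4HA2, a collagen prolyl hydroxylase, had 906, 774 and 914 in the shHIF-1A arrays at 3 h, against 2148, 2374 and 2150 in the shGFP arrays at 3 h and 1936 and 1800 in the shGFP arrays in normoxia. Its shHIF-1A arrays lay below both shGFP groups, by 2.58-fold against shGFP at 3 h (-1.37 ± 0.11 log2).

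**Figure D3:**
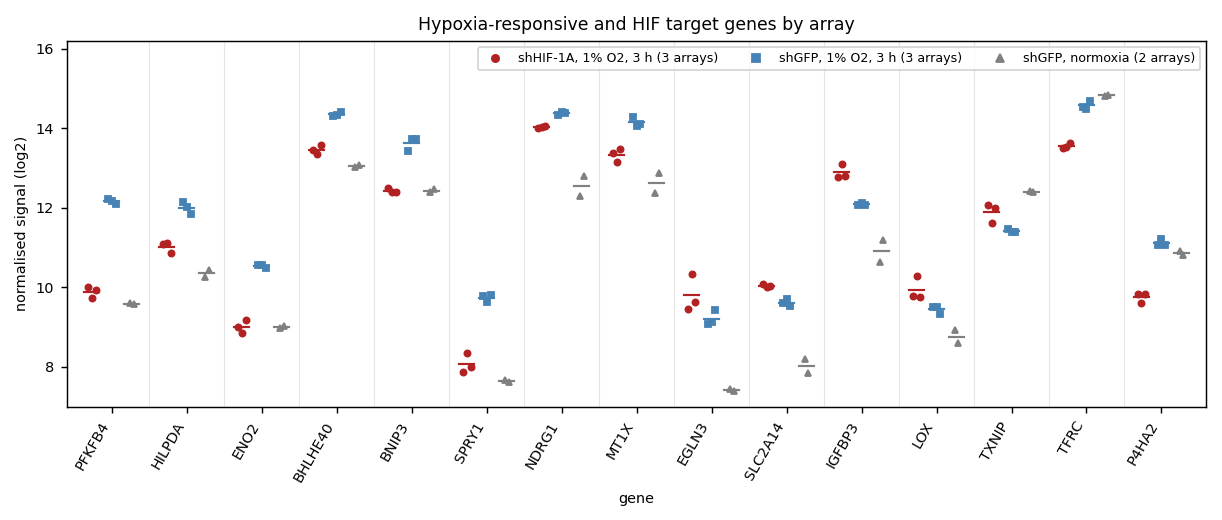
Normalised signals on the log2 scale (vertical axis) of 15 hypoxia-responsive or HIF target genes, with 1 point per array and a bar at the mean of each group. In PFKFB4, ENO2, BNIP3 and SPRY1 the shHIF-1A points lie near the normoxic shGFP points, while in EGLN3, SLC2A14, IGFBP3 and LOX they lie above the mean of the shGFP points at 3 h.

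Lists of genes raised by hypoxia on other arrays of the shGFP line described the comparison more broadly. Of 98 genes raised at least 2-fold in shGFP cells at 6 h (0.643% of genes tested), 56 were lower and 10 higher in shHIF-1A cells at 3 h, with a median of -0.41. Of 196 genes raised at least 4-fold at 24 h (1.29%), 101 were lower and 13 higher, with a median of -0.34. The background shares were 13.3% lower and 11.8% higher.

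Among HIF subunits and oxygen-sensing hydroxylases, 5 of 13 measured members of 15 listed passed as lower (38.5%) and 2 as higher (15.4%). Of all genes 13.3% passed as lower and 11.8% as higher. Besides HIF1A, ARNT2, an alternative partner subunit, was lower, with 204, 217 and 198 in the shHIF-1A arrays, against 330, 380 and 399 in the shGFP arrays (-0.84 ± 0.11 log2). EGLN1, the main prolyl hydroxylase, had 683, 706 and 704 in the shHIF-1A arrays, against 944, 856 and 952 in the shGFP arrays (-0.39, adjusted p = 0.0358). EGLN3, its most hypoxia-inducible relative, went the other way, with 698, 1294 and 799 in the shHIF-1A arrays at 3 h, against 543, 561 and 691 in the shGFP arrays at 3 h and 176 and 169 in the shGFP arrays in normoxia (0.59, adjusted p = 0.0054). Replicate 2 of shHIF-1A was the highest EGLN3 array, and without it the call was lost. CITED2, which competes with HIF for its coactivators, had 2437, 4107 and 2363 in the shHIF-1A arrays, against 2125, 2169 and 1870 in the shGFP arrays (0.49, adjusted p = 0.0116), also with its highest value in replicate 2 and a call lost without it. BMAL1, a clock factor (-0.33, adjusted p = 0.0179), and P4HTM, a transmembrane prolyl hydroxylase (-0.29, adjusted p = 0.0252), were lower by little. EPAS1, which encodes the other main HIF alpha subunit, had 6795, 5726 and 6897 in the shHIF-1A arrays, against 6030, 6228 and 5669 in the shGFP arrays and did not pass (0.11, adjusted p = 0.602). VHL (0.22), HIF1AN (-0.21), EGLN2 (-0.16), HIF3A (0.04) and ARNT (-0.02) did not pass, and the arrays of HIF3A and ARNT were near the array median. A dimmer EGLN2 probe was lower (-0.40, adjusted p = 0.0089 over all kept probes), and EGLN2 passed as lower with the mean of its probes (-0.28). The lower count was 2 without replicate 2 of shHIF-1A or replicate 3 of shGFP, 3 without replicate 1 or 3 of shHIF-1A or replicate 1 of shGFP, and 2 with median-centred arrays. The higher count was 0 without replicate 2 of shHIF-1A and 1 without replicate 3 of shGFP.

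In the NDRG family, NDRG1, which is strongly induced by hypoxia, was the 1 member of 4 to pass. It had 16348, 16718 and 17175 in the shHIF-1A arrays at 3 h, against 20566, 21826 and 21308 in the shGFP arrays at 3 h and 5038 and 7188 in the shGFP arrays in normoxia, and the difference between lines was -0.34 ± 0.10 log2 (1.27-fold, adjusted p = 0.0167). The call was lost without replicate 1 of shHIF-1A, without replicate 2 of shGFP and with median-centred arrays. NDRG3 had 1571, 1773 and 1411 in the shHIF-1A arrays, against 1353, 1443 and 1337 in the shGFP arrays, with overlapping groups (0.20, adjusted p = 0.151). NDRG2 and NDRG4 were near the array median in both lines (0.06 and 0.03).

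Secreted inflammatory factors were lower in shHIF-1A cells. Of 26 measured angiogenic and inflammatory factors 15 passed as lower and 2 as higher, with a median of -0.54. Of 30 NF-kappaB targets 14 passed as lower and 0 as higher, with a median of -0.33. The shares over all genes were 13.3% lower and 11.8% higher. PTGS2, the inducible cyclooxygenase, had 393, 460 and 476 in the shHIF-1A arrays, against 1947, 2023 and 2121 in the shGFP arrays (4.6-fold, log2 -2.20 ± 0.09). IL6 had 880, 818 and 885 in the shHIF-1A arrays, against 2337, 2711 and 2491 in the shGFP arrays (2.91-fold, log2 -1.54 ± 0.12). CXCL8, a neutrophil chemokine, had 300, 385 and 323 in the shHIF-1A arrays, against 1168, 1398 and 1529 in the shGFP arrays (4.06-fold, log2 -2.02 ± 0.17). In all 3 genes every shHIF-1A array lay far below every shGFP array. CCL20, a chemokine for lymphocytes and dendritic cells, was lower by 4.23-fold, IL1B by 2.52-fold and IL11 by at least 2.48-fold. TNFAIP3 and NFKBIZ, feedback genes of NF-kappaB, were lower by at least 2.77-fold and 2.05-fold. ANG, a secreted ribonuclease with angiogenic activity, had 832, 593 and 786 in the shHIF-1A arrays, against 2612, 2420 and 2461 in the shGFP arrays (3.42-fold). These 9 named genes did not pass between shGFP cells at 3 h and normoxia. In that contrast 5 of the 26 factors passed as higher and 1 as lower, and 0 and 1 of the 30 NF-kappaB targets. The shares over all genes were 1.28% higher and 0.203% lower there. The 2 factors that passed as higher were IGFBP3 (0.81 log2, described above) and EDN2, an endothelin. EDN2 had 494, 486 and 476 in the shHIF-1A arrays, against 143, 126 and 152 in the shGFP arrays. It was the gene with the largest rise of all (at least 3.47-fold, log2 1.79 ± 0.19, adjusted p = 1.97e-07).

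Output genes of the ERK pathway were lower. Of 29 measured members 22 passed as lower and 1 as higher, beside 13.3% and 11.8% of all genes. The median was -0.87, and 12 were lower by at least 2-fold, beside 1.69% of all genes. ETV5, an ETS factor transcribed in response to ERK, had 197, 190 and 206 in the shHIF-1A arrays, against 1627, 1535 and 1419 in the shGFP arrays (7.71-fold, log2 -2.95 ± 0.11). CCND1, the cyclin that drives entry into the cell cycle, had 1047, 849 and 1022 in the shHIF-1A arrays, against 6252, 6800 and 6971 in the shGFP arrays (6.88-fold, log2 -2.78 ± 0.14). DUSP5 and DUSP6, phosphatases that switch ERK off, followed. DUSP5 had 4612, 4479 and 4313 in the shHIF-1A arrays, against 16912, 15902 and 17049 in the shGFP arrays (3.72-fold), and DUSP6 was lower by at least 2.44-fold. HBEGF, a ligand of the epidermal growth factor receptor, was lower by 2.32-fold. MYC was the member that passed as higher, with 11182, 11107 and 12459 in the shHIF-1A arrays, against 7653, 7081 and 8566 in the shGFP arrays (0.58 ± 0.09 log2, adjusted p = 1.71e-05).

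Among YAP target genes 6 of 16 passed as lower and 2 as higher, beside 13.3% and 11.8% of all genes, but the median was 0.09. ANKRD1, a muscle ankyrin-repeat protein and common YAP readout, had 380, 475 and 373 in the shHIF-1A arrays, against 1774, 1875 and 2265 in the shGFP arrays (4.82-fold, log2 -2.27 ± 0.12). CCN1, a matricellular protein, had 1956, 1486 and 1671 in the shHIF-1A arrays, against 6552, 6529 and 7525 in the shGFP arrays (4.05-fold). NT5E, the enzyme that makes extracellular adenosine, was lower by 3.54-fold, DKK1, a WNT antagonist, by 1.81-fold and AXL, a receptor tyrosine kinase, by 1.59-fold. The 2 higher members were PTPN14, an inhibitor of YAP, by 1.36-fold, and TEAD4 by 1.26-fold. The call of TEAD4 was lost with the mean of its probes. CCN2 was lower by little (-0.30, adjusted p = 0.0494), and its call was lost under 12 of the 16 alternatives. Another CCN2 probe gave -0.70 (adjusted p = 0.000482 over all kept probes).

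Ribosome biogenesis genes were higher in shHIF-1A cells, each by less than 2-fold. Of 33 measured members 20 passed as higher and 0 as lower, beside 11.8% and 13.3% of all genes. The median was 0.37, and the higher counts ranged from 14 to 18 when an array was left out. DKC1, the pseudouridine synthase of small nucleolar particles, had 13648, 15382 and 14055 in the shHIF-1A arrays, against 9484, 9404 and 8476 in the shGFP arrays (0.65 ± 0.10 log2). NOLC1, a nucleolar scaffold, had 2729, 2450 and 2520 in the shHIF-1A arrays, against 1578, 1567 and 1581 in the shGFP arrays (0.70 ± 0.12 log2). NHP2, a partner of DKC1, BOP1 and WDR12, which process the large subunit, and RRP9, a small-subunit factor, were higher by 0.59, 0.63, 0.66 and 0.57 log2. These 6 were picked for the smallest p, so their lack of overlap between lines adds nothing. In the list 28 of 33 members were higher without overlap, beside 19.1% of all genes.

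Of 36 mitosis genes 14 passed as higher and 0 as lower, beside 11.8% and 13.3% of all genes, while the others did not pass. The median was 0.17, and 9 passed without replicate 3 of shHIF-1A or replicate 1 of shGFP. PLK1, a mitotic kinase, had 732, 786 and 786 in the shHIF-1A arrays, against 478, 458 and 436 in the shGFP arrays (0.75 ± 0.12 log2). BUB1B and MAD2L1, of the spindle checkpoint, were higher by 0.59 and 0.59, and CCNB1, the mitotic cyclin, by 0.52. In CCNB1 and BUB1B replicate 2 of shHIF-1A was the highest array. Of 41 S phase genes 6 passed as higher and 0 as lower, a share near the background, with a median of 0.06. UNG, which removes uracil from DNA, had 6018, 5336 and 6623 in the shHIF-1A arrays, against 3898, 3842 and 3623 in the shGFP arrays (0.66 ± 0.09 log2), and MCM6, of the replicative helicase, was higher by 0.50. With signals as deposited the S phase count was 12 and the mitosis count 17.

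Long noncoding RNAs, several of which host small nucleolar RNAs, held 2 of the 12 highest genes. Of 20 measured members 8 passed as higher and 2 as lower, beside 11.8% and 13.3% of all genes. The median was 0.14, and 5 passed as higher without replicate 1 of shHIF-1A or replicate 2 or 3 of shGFP. DANCR had 1609, 1610 and 1556 in the shHIF-1A arrays, against 720, 670 and 623 in the shGFP arrays (2.38-fold, log2 1.25 ± 0.09). DLEU1 had 1886, 1819 and 1939 in the shHIF-1A arrays, against 924, 805 and 711 in the shGFP arrays (2.33-fold, log2 1.22 ± 0.10). Each was more than 2-fold higher in shHIF-1A cells. Their arrays do not overlap between the lines, which was a condition for the 12 highest. SNHG8, a host of small nucleolar RNAs, was higher by 0.51 and SNHG15 lower (-0.41). The call of SNHG15 was lost with median-centred arrays and with signals as deposited, where 0 members passed as lower.

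Other genes among the 12 highest came from unrelated processes. ACO1, the cytosolic aconitase that is also an iron regulatory protein, had 3909, 3666 and 4007 in the shHIF-1A arrays, against 1565, 1538 and 1477 in the shGFP arrays (2.53-fold, log2 1.34 ± 0.08, adjusted p = 4.28e-12). ATPSCKMT, a methyltransferase that acts on the c subunit of ATP synthase, had 777, 785 and 818 in the shHIF-1A arrays, against 301, 302 and 286 in the shGFP arrays (2.68-fold). DIO2, which activates thyroid hormone, had 2536, 2376 and 2721 in the shHIF-1A arrays, against 1118, 1202 and 1154 in the shGFP arrays (2.19-fold). In these 3 genes the 3 arrays of each line lay close together. HTR3A, a serotonin receptor subunit, FJX1, a secreted relative of a Drosophila planar polarity gene, UBL3, a ubiquitin-like membrane protein, and AGAP1, an Arf GTPase-activating protein, were higher by 2.32-fold, 2.31-fold, 2.2-fold and 2.12-fold. Dim probes near the array median gave log2 differences of 0.06 for ATPSCKMT, 0.14 for DIO2 and 0.06 for AGAP1. For HTR3A such probes gave 0.50 and 0.006. The folds of these genes are thus each those of 1 probe. SERPINB3, a protease inhibitor, had 831, 464 and 794 in the shHIF-1A arrays, against 283, 287 and 289 in the shGFP arrays (2.35-fold), with replicate 2 of shHIF-1A well below replicates 1 and 3. Its other probe, under the array median, gave 0.51 log2. FGG, fibrinogen gamma, had 166, 175 and 170 in the shHIF-1A arrays, against 75.2, 85.2 and 83.4 in the shGFP arrays, at or near background in both lines, and its call was lost with no filter on dim probes, where another probe represents the gene.

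Stress and protein folding genes were lower. Of 26 measured genes of folding and quality control in the endoplasmic reticulum 17 passed as lower and 0 as higher. The shares over all genes were 13.3% and 11.8%. The list median was -0.47, and 10 members passed as lower with median-centred arrays. P4HB, a disulfide isomerase that is also the beta subunit of collagen prolyl hydroxylase, had 6030, 5832 and 5528 in the shHIF-1A arrays, against 11406, 11734 and 11157 in the shGFP arrays (1.97-fold, log2 -0.98 ± 0.08). CALR, a calcium-binding chaperone, had 4595, 4328 and 4124 in the shHIF-1A arrays, against 8394, 8063 and 8646 in the shGFP arrays (1.93-fold). HSPA5 and HSP90B1, the main luminal chaperones, were lower by 1.93-fold and 1.68-fold.

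ATF4 targets differed in both directions, with 7 of 41 higher (17.1%), 14 lower (34.1%) and a median of 0.02. Of all genes 11.8% passed as higher and 13.3% as lower. ASNS and PSAT1, which make asparagine and serine, were higher, by 1.02 ± 0.20 and 0.94 ± 0.27 log2. ASNS had 4437, 3492 and 4023 in the shHIF-1A arrays, against 2004, 1988 and 1886 in the shGFP arrays. The stress-response members TRIB3, DDIT3 and PPP1R15A were lower, by 2.03-fold, 1.96-fold and 1.66-fold. GDF15, a stress-induced hormone of the TGF-beta family that stands on this list and on that of p53 targets, had 453, 449 and 461 in the shHIF-1A arrays, against 6529, 5707 and 6313 in the shGFP arrays (13.6-fold, log2 -3.76 ± 0.14). It was among the 12 lowest genes of the whole comparison. With median-centred arrays 9 ATF4 targets passed as lower.

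Of 25 p53 target genes 4 passed as higher (16%) and 8 as lower (32%), beside 11.8% and 13.3% of all genes. Their median was -0.18. CDKN1A, the cyclin-dependent kinase inhibitor p21, had 6316, 3882 and 5861 in the shHIF-1A arrays, against 12341, 11916 and 12753 in the shGFP arrays (2.35-fold, log2 -1.24 ± 0.12). PMAIP1, a proapoptotic BCL2-family protein, had 968, 964 and 977 in the shHIF-1A arrays, against 1681, 1772 and 2101 in the shGFP arrays (1.9-fold), while CCNG1 and PLK2 were higher by 0.43 and 0.65 log2. The count of lower p53 targets was 5 without replicate 1 of shHIF-1A or without replicate 2 or 3 of shGFP, and 4 with median-centred arrays.

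Metallothioneins, which buffer zinc and copper, were lower in 5 of 8 measured members and higher in 0, beside 13.3% and 11.8% of all genes. Their median was -0.54. MT1X had 10734, 9036 and 11433 in the shHIF-1A arrays at 3 h, against 19985, 17004 and 17505 in the shGFP arrays at 3 h and 5319 and 7506 in the shGFP arrays in normoxia. The shHIF-1A arrays lay between shGFP at 3 h and in normoxia, with -0.81 ± 0.12 log2 between lines. MT2A had 26060, 26455 and 27476 in the shHIF-1A arrays, against 43601, 37505 and 37740 in the shGFP arrays (-0.57 ± 0.09 log2), and SLC30A1, a zinc exporter on this list, was lower by 1.51-fold. Metallothionein genes are near-identical, and their probes may share transcripts.

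Mitochondrial and lipid genes differed in few members. Of 44 oxidative phosphorylation genes 8 passed as higher (18.2%) and 1 as lower (2.27%), beside 11.8% and 13.3% of all genes. Their median was 0.06. ATP5PB, a stator subunit of ATP synthase, had 17992, 20508 and 18839 in the shHIF-1A arrays, against 10996, 11245 and 11635 in the shGFP arrays (0.76 ± 0.09 log2), and CYCS, cytochrome c, was higher by 0.91 ± 0.17. The higher count was 3 without replicate 2 of shHIF-1A and 5 and 4 without replicates 1 and 3 of shGFP. Of 16 fatty acid synthesis genes 4 passed as higher (25%) and 2 as lower (12.5%, near the share of all genes), with a median of -0.01. ACACA, acetyl-CoA carboxylase, had 2131, 2336 and 2194 in the shHIF-1A arrays, against 1184, 1180 and 1284 in the shGFP arrays (0.87 ± 0.12 log2), while ACSS2, which makes acetyl-CoA from acetate, was lower by 1.73-fold. Of 19 cholesterol genes 2 passed as higher and 6 as lower, and 1 and 1 did so with median-centred arrays. Of 22 NRF2 targets 4 passed as higher and 2 as lower, beside 11.8% and 13.3% of all genes, and ME1, malic enzyme, was among the higher ones (0.81 ± 0.12 log2). The higher count was 2 without replicate 1 of shGFP and 7 with median-centred arrays.

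Where 0 members of a list passed in a direction in limma's test, the count at an unadjusted p under 0.05 was also 0, apart from 1 higher member among interferon signalling and RNA sensing genes and 5 lower members among S phase genes.

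**Figure D4:**
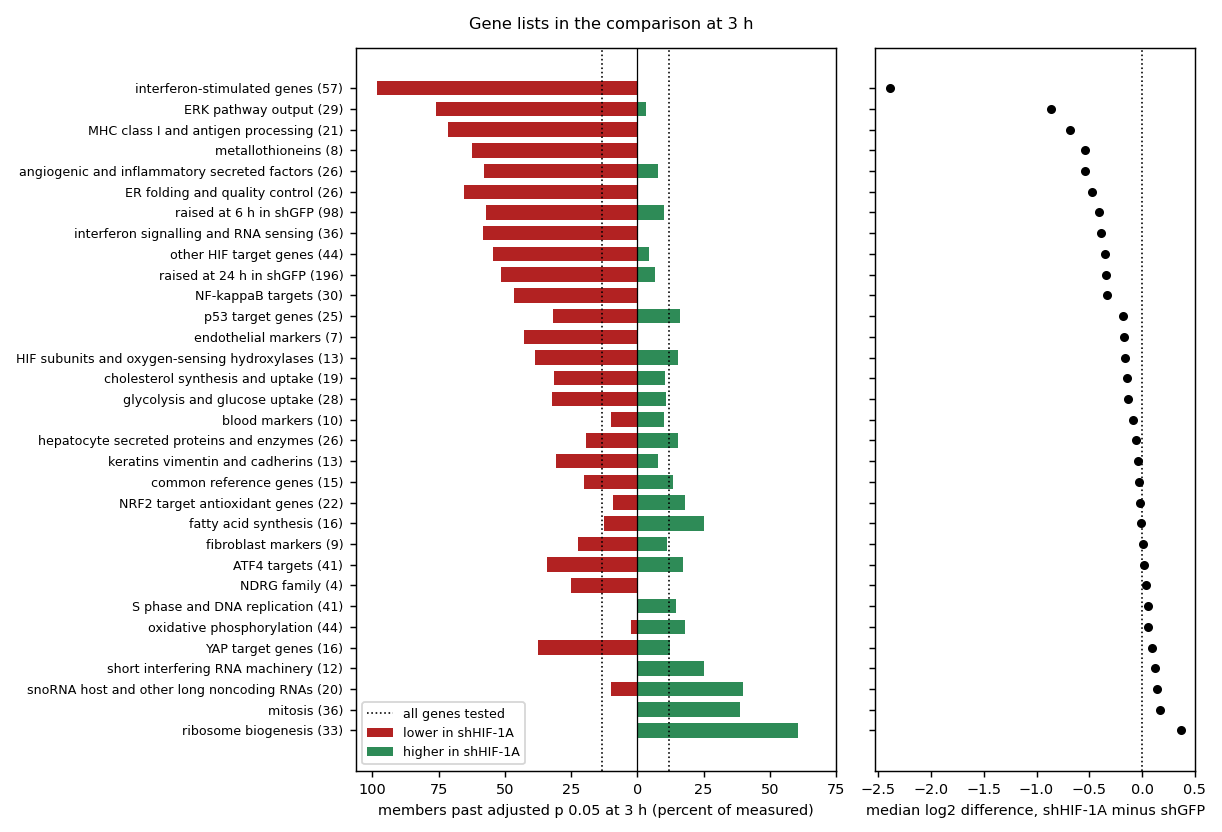
The left panel gives, for each gene list, the percent of measured members that passed at 3 h as lower (bars to the left) or higher (bars to the right), with the share of all genes tested as dotted lines and the number measured in brackets. The right panel gives the median log2 difference of each list, which runs from -2.39 in interferon-stimulated genes to 0.37 in ribosome biogenesis genes.

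Calls in lists that mark cell identity are to be read beside the 11.8% of all genes that passed as higher and the 13.3% that passed as lower. Of 26 hepatocyte proteins and enzymes 4 passed as higher (15.4%) and 5 as lower (19.2%), and CFB, a complement factor, had 5606, 4696 and 5521 in the shHIF-1A arrays, against 13386, 13685 and 15361 in the shGFP arrays (2.69-fold). Sums of signal are over shorter sets than the lists, of 13 hepatocyte, 7 fibroblast, 5 endothelial and 7 blood markers. The summed signal of hepatocyte markers was 2249 to 2464 in shHIF-1A arrays and 2416 to 2568 in shGFP arrays. Of 13 keratins, vimentin, cadherins and related genes 1 passed as higher (7.69%) and 4 as lower (30.8%), led by KRT7 (1.8-fold lower). Fibroblast markers summed to 1175 to 1280 in shHIF-1A and 1163 to 1230 in shGFP arrays. Of 9 measured members 1 was higher (11.1%) and 2 were lower (22.2%), among them ACTA2, smooth muscle actin (2.12-fold lower). Endothelial markers summed to 677 to 706 in shHIF-1A and 835 to 877 in shGFP arrays, with 3 of 7 measured members lower (42.9%) and 0 higher. PECAM1 reached 1.48 times the array median in shHIF-1A and 2.01 times in shGFP cells, and the 4 other defining markers lay between 0.868 and 1.26 times it. Blood markers summed to 3033 to 3432 in shHIF-1A and 7664 to 8314 in shGFP arrays, and 1 of 10 measured members of the list passed in each direction. The gap in the sum is that of CD68, a lysosomal protein with 2282, 2657 and 2218 in the shHIF-1A arrays, against 6811, 6955 and 7436 in the shGFP arrays. The defining blood marker PTPRC was at 0.9 and 0.886 times the array median in shHIF-1A and shGFP cells. The part of other cell types in the results was not tested. Of 15 common reference genes 2 passed as higher (13.3%) and 3 as lower (20%), with a median of -0.03.

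Most differences at 3 h were also present at 6 h and 12 h, and a direct test of the change found few genes. The difference between lines at 3 h differed from the mean of those at 6 h and 12 h for 53 genes (0.348%), 35 with a more positive value at 3 h and 18 with a more negative one. At an unadjusted p under 0.05 there were 1631 genes (10.7%). The count rested on single arrays. It was 9 without replicate 3 of shGFP at 3 h, 16 without its replicate 1 or 2, 29 without replicate 2 of shHIF-1A at 3 h, and 13 to 25 without any 1 of the arrays at 6 h or 12 h except replicate 2 of shHIF-1A at 12 h. With median-centred arrays it was 9, 8 of them more positive and 1 more negative at 3 h, and with array weights it was 397, 208 and 189 in these directions.

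Genes with a more positive value at 3 h were mostly genes that hypoxia raised in shGFP cells. Of the 35, 31 were raised in shGFP cells at 24 h against normoxia (adjusted p under 0.05), beside 21.1% of all genes tested. The arrays at 24 h and in normoxia are not part of the contrast between times. They do enter the normalisation, the probe filter and the pooled spread of its test. LOX differed by 0.49 at 3 h, -0.39 at 6 h and -0.68 at 12 h. HMOX1, heme oxygenase, differed by -0.64, -1.80 and -1.51 at the same times. SNAI2, a repressor of epithelial genes, differed by 0.28, -0.51 and -0.78. LOX and SNAI2 had opposite signs at 3 h and later, while HMOX1 was lower at each time. HILPDA differed by -0.97, -1.40 and -2.00, and IGFBP3 by 0.81, 0.33 and -0.09. S100A9, a calcium-binding inflammatory protein, did not pass at 3 h (-0.17) and was lower later (-0.69 and -1.57).

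Genes with a more negative value at 3 h included 5 of the 57 interferon-stimulated genes. ISG20 differed by -3.38 at 3 h, -3.05 at 6 h and -2.41 at 12 h, and HELZ2, an interferon-stimulated coactivator, by -2.52, -2.21 and -1.85. The others, MX2, TRIM22 and UBE2L6, which conjugates ISG15, were near background in shHIF-1A cells, so their differences are bounds and their sizes cannot be compared between times. With median-centred arrays, with signals as deposited and without replicate 3 of shGFP at 3 h, 0 of these 5 passed, and ISG20 and HELZ2 also lost the call without replicate 2 or 3 of shHIF-1A at 3 h. PPP1R10, a regulatory subunit of protein phosphatase, did not pass at 3 h (0.23) and was higher later (1.06 and 1.53). ARID5B, a chromatin regulator, was lower at 3 h (-0.42) and higher at 12 h (0.49), and its call at 3 h was lost with median-centred arrays. DIO2 was already higher at 3 h (1.13) and more so at 6 h (1.77).

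**Figure D5:**
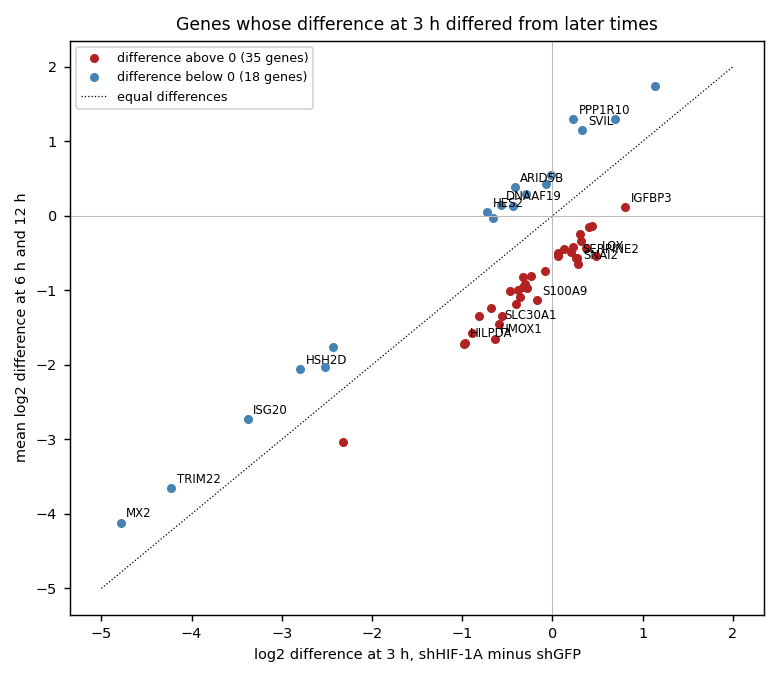
Each point is 1 of 53 genes, with its log2 difference between lines at 3 h (horizontal axis) and the mean of its differences at 6 h and 12 h (vertical axis), and the dotted line marks equal differences. Points below the line, 35 in all, were more positive at 3 h than later, and 21 of the 53 genes had opposite signs at the 2 stages.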

How the data were processed

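Total RNA was column-purified, amplified and biotin-labelled, per the labels' protocols, and hybridised to Illumina bead arrays with 47231 probes. What was deposited is the intensity of each probe, not on a log scale. How the authors scanned, background-corrected or scaled it is not given in the sources used here. Because medians differed between arrays, the deposited intensity was treated as unnormalized. In R 4.3.3, limma 3.58.1 with statmod 1.5.0 was used to quantile normalize log2 intensities over all 24 arrays. The 31100 probes above the median of at least 2 arrays were analysed. Names came from the platform annotation (30113 probes with 1 symbol, 8 with several, 17110 not listed), and each of 15246 genes was represented by its brightest kept probe. A model of 11 group means was fitted (lmFit, eBayes; 13 residual and 9.74 prior degrees of freedom), with two-sided tests adjusted by Benjamini-Hochberg at 0.05 within each contrast. Arrays carry no depth, and their number limits the precision. Same-numbered arrays did not deviate together (r = 0.0556, 0.0833 and 0.0036), so replicate numbers were not treated as pairs. The fit was tested on simulated data.

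Named genes were HIF1A, NDRG3, NDRG1 and VEGFA, the 12 highest and 12 lowest non-overlapping called genes (without LOC, HS. and C-orf symbols), up to 6 members of each of 30 gene lists with the smallest p in each direction, every HIF subunit, oxygen-sensing hydroxylase and NDRG gene, and the 6 highest and lowest genes of the difference between 3 h and later times. The comparison, members and lists were chosen with earlier results of these data known. Alternatives were other normalizations, normexp background correction, other probe filters, the mean of a gene's probes, array weights, an intensity-dependent prior, a replicate block, the 6 arrays alone, other call rules and leaving out each array. Promoters came from RefSeq (GRCh38.p14).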

Additional observations from a re-analysis of the deposited data

Results flagged for a closer look

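Genes named above whose difference between lines at 3 h differed from the mean at 6 h and 12 h in limma's test of that difference (adjusted p under 0.05) are listed by the log2 size of the change, 3 h minus later. Among hypoxia-responsive genes it was 1.02 for LOX, 0.73 for HILPDA, 0.69 for IGFBP3, 0.56 for ALDOC and 0.55 for PDK3. Among redox, zinc and secreted proteins it was 1.01 for HMOX1, 0.86 for SLC30A1, 0.96 for S100A9 and 0.84 for SERPINE2, a protease inhibitor, and it was 0.93 for SNAI2. Of interferon-stimulated genes, ISG20 had -0.65, MX2 -0.67 and TRIM22 -0.57. HSH2D, an adaptor of lymphocyte signalling with 176, 160 and 192 in the shHIF-1A arrays, against 1099, 1136 and 1447 in the shGFP arrays at 3 h, had -0.74. MX2, TRIM22, HSH2D and HES2 were near background in shHIF-1A cells at 3 h, so the sizes of their differences cannot be compared between times. The sign of HES2 did turn, from -0.72 at 3 h and -0.25 at 6 h to 0.34 at 12 h. Negative values were also found for PPP1R10 (-1.07), SVIL (-0.81), an actin-binding protein, ARID5B (-0.80), HES2 (-0.77), a transcriptional repressor, DNAAF19 (-0.71), an axonemal assembly factor, and DIO2 (-0.60). The 3 h groups hold 3 arrays and the later ones 2, and the causes of these differences were not tested.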

How the results depend on the processing

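The comparison at 3 h gave 3377 to 4979 genes past the threshold under the other normalizations, filters, probe rules, weights, priors and samples, and 3060 to 3404 when 1 array was left out. Under other call rules it gave 1100 genes (adjusted p under 0.05 and at least 1.5-fold) and 5898 (arrays that do not overlap, 38.7% of genes). With the replicate number as a block, 3768 genes passed at 3 h and 41 in the difference from later times, and the pairing check found no shared deviation of same-numbered arrays. The 53 genes of that difference became 9 with median-centred arrays, 8 with signals as deposited (7 more positive and 1 more negative), 397 with array weights, and 9 to 48 when 1 array was left out, with the cause not tested. Of 202 named genes past the threshold, 148 kept their call and sign under all 16 settings and 2 under all settings that measured them, and 52 lost the call under at least 1, 15 of them only where an array was left out. The dimmer HIF1A probe (-0.39) did not pass. Signs turned for 5 genes that had not passed. ARNT was 0.0048 and EGLN2 0.0152 with signals as deposited, and NDRG2 was -0.0036 with the mean of its probes. When 1 array was left out, ARNT ranged between -0.0729 and 0.048, HIF3A between -0.0584 and 0.1047, and NDRG4 between -0.0776 and 0.1125. No fold of a named gene moved by over 1.5 times with normexp background correction, in which an offset of 50 was added to every corrected signal. An added offset compresses folds of dim genes, so this setting cannot show how far those folds are understated. Genes near the array median carry little signal over background.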

Other observations

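Further genes whose difference between lines changed after 3 h are given here, chosen after their values were seen. ERO1A, the oxidase that makes disulfide bonds in the endoplasmic reticulum, differed by -0.41 at 3 h, -0.98 at 6 h and -1.40 at 12 h on the log2 scale, STC1, the hormone stanniocalcin, by -0.89, -1.31 and -1.82, and BMP6, a regulator of hepcidin, by -0.98, -1.43 and -2.01. These 3 were lower by more at the later times. CDKN2B, an inhibitor of cell cycle kinases, differed by -0.28, -0.85 and -1.08.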
